A study of Mus musculus with 18 samples.

Results

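The loss of Tgfb1 from microglia was followed in 2 cell types of the same brains, and the quantity described here is the difference between them: the KO effect in microglia (KO minus control) minus the KO effect in astrocytes. It was read for 7575 of the 35869 genes listed, chosen by level so that both cell types express them: a mean of at least 5 TPM (the share of transcripts scaled to a fixed total in each library) in control or KO microglia, and also of at least 5 TPM in control or KO astrocytes. In microglia 9266 genes reached that minimum and in astrocytes 10139. A positive difference means that the KO effect was higher in microglia, and a negative one that it was lower. Microglia and astrocytes were isolated enzymatically in the presence of inhibitors from brains of adult C57BL/6 mice and sorted by flow cytometry, and their total RNA was sequenced. KO mice were Cx3cr1CreERT2-Tgfb1fl/fl, in which Cre is made by microglia and other cells with an active Cx3cr1 gene, and control mice carried Cx3cr1CreERT2. All mice of both groups, the controls included, had received 5 doses of tamoxifen at 180 mg/kg by oral gavage. The fit used 17 libraries: 4 of control microglia, 4 of KO microglia, 5 of control astrocytes and 4 of astrocytes from KO mice. In the 4 KO animals and in control animals 1, 2, 4 and 5 both cell types came from the same mouse.

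TGF-beta 1 is a secreted cytokine that is made in a latent form, released by integrins that pull on its latency peptide, and read by a receptor pair that phosphorylates SMAD proteins. Microglia both make the ligand and depend on it for the genes that mark their resting state. Astrocytes carry the same receptors at low level, sit beside microglia, and respond to what microglia secrete, so astrocytes of these mice can show what reaches a neighbouring cell type.

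The level minimum reads the same group means as the KO effect, so the choice of genes is not independent of it. Of the 7575 genes, 6693 (88.4%) reached 5 TPM in all 4 groups and 882 (11.6%) were under it in at least 1 group. In microglia, Axl, Apoc1, Ehd1, Antxr2, Acsl3, Gadd45b, Acsbg1, Gfap, Oasl2, Gbp10 and Prodh were among those that reached it through the KO group alone. In astrocytes, so were Ccl12, Ccl7, Ms4a7, Lyz1, Oasl2, Gbp10, Irf7, Skil, Eng and Lhfpl2. Jam2, Adgrg1, Tmem100 and Lhfpl2 reached it in microglia through the control group alone. The differences of these genes are not independent of the choice. A minimum on the mean of both genotypes kept 7188 genes. At the edge, Car13 and Gpatch4 had 5 TPM in the deciding group, and Nfkbiz and Zfp959, with 4.98 TPM, were left out. All 7575 genes passed the filter of the fit (at least 1 TPM in at least 4 libraries).

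The libraries carried the genotype and cell type of their labels. Tgfb1 itself was at 2.8 to 3.4 TPM in control microglia, at 1.3 to 2.0 TPM in KO microglia, without overlap, and at 0 to 0.3 TPM in all 9 astrocyte libraries, so it was not among the 7575. Control animals 1 and 2 and all KO animals held Xist RNA and no more than 0.1 TPM of the Y-linked Ddx3y, while control animals 3, 4 and 5 held Ddx3y and no Xist, so genotype and sex were not balanced. Astrocyte libraries of KO animals 1 and 3 held 6802 and 10278 summed TPM of mural and fibroblast-like markers, against 250.1 to 3415 in controls. Those of KO animals 2 and 4 held 822.6 and 3850 TPM, so that of animal 4 was also above all controls. The library of KO animal 1 also held 1.69% of the level of 5 microglial genes (the median of C1qa, C1qb, C1qc, Csf1r and Tyrobp) in microglia of the same animal, against 0.0446% to 0.265% in controls. Fewer cells of a kind and less RNA per cell cannot be told apart in sorted bulk samples, and TPM files keep no read depth. Several results that rest on the astrocyte libraries are therefore given with and without those of KO animals 1 and 3.

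**Figure D1:**
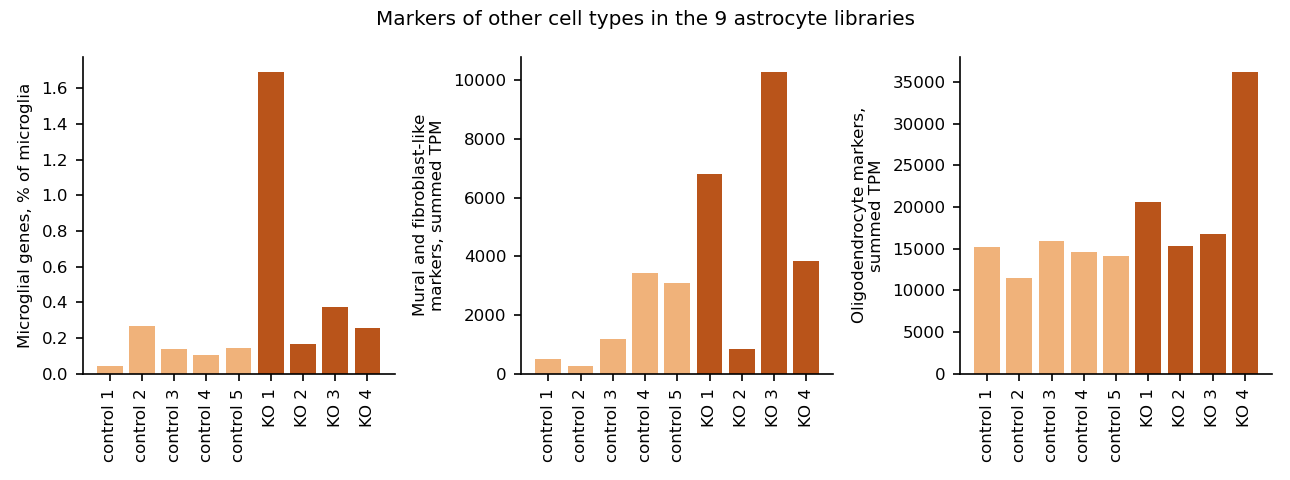
Markers of other cell types in the 9 astrocyte libraries. Bars give, for each control (light) or KO (dark) animal, the median level of 5 microglial genes as a percent of microglia, the summed TPM of mural and fibroblast-like markers, and the summed TPM of oligodendrocyte markers. KO 1 has the highest microglial share (1.69%), KO 3 the highest mural sum (10278 TPM) and KO 4 the highest oligodendrocyte sum (36224 TPM).

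The KO effects in the 2 cell types differed for 1437 of the 7575 genes (limma's moderated test on log2(TPM + 1), Benjamini-Hochberg adjusted p under 0.05 over all 17087 genes tested). Over all genes tested 15.5% were called. The effect was higher in microglia for 566 genes (6.63% of all tested genes were called so) and lower for 871 (8.87%). Counts of called differences in the gene lists below stand beside the same shares. With the minimum set on the mean of both genotypes, 524 were higher and 821 lower. The split depended on scaling: 39.4% of the calls were higher with TPM as deposited, and 50.6% after median-of-ratios scaling over all libraries, with 699 higher and 682 lower. No call changed sign under that scaling. The median difference over the 7575 genes was -0.10 on the log2 scale, beside -0.06 over all genes tested, and after that scaling it was -0.01 beside 0.02. When only the 2 control animals without Y-linked RNA were used, 344 and 567 genes were called. Without the astrocyte libraries of KO animals 1 and 3, 535 genes were higher and 661 lower, and 1092 of the 1437 were also called.

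The differences came mostly from the microglial side. Within microglia 1029 of the 7575 genes were called higher and 1110 lower in KO, where the shares over all tested genes were 22.3% in either direction, 11.4% higher and 10.9% lower. Within astrocytes 34 were called higher and 12 lower, where the shares over all tested genes were 0.515% in either direction, 0.369% higher and 0.146% lower. An unadjusted limma p under 0.05 was found in astrocytes for 1293 of the 7575 genes, beside 2687 of all 17087 genes tested. The number of these 46 astrocyte calls varied with single libraries left out. It was 7, 366, 6 and 15 without the astrocyte library of KO animal 1, 2, 3 and 4. Without that of control animal 1 and 2 it was 19 and 9. Without the microglia of control animal 1 or 5 or of any KO animal it was 22 to 30. Usp18, Oasl2, Rtp4 and H2-D1 were called in both cell types whichever 1 library was left out. Of the 566 genes with a higher effect in microglia, 537 had the larger effect in microglia, and of the 871 with a lower effect 774 did. The 1029 genes called higher in KO microglia had a median effect of 0.87 there and 0.05 in astrocytes, and the 1110 called lower had -0.72 and 0.04. Not every microglial call came with a called difference: it was present for 51.2% of the genes called higher and 65.1% of those called lower. Over the 7575 genes Pearson's r of the 2 effects was 0.15, a description over genes that share libraries.

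**Figure D2:**
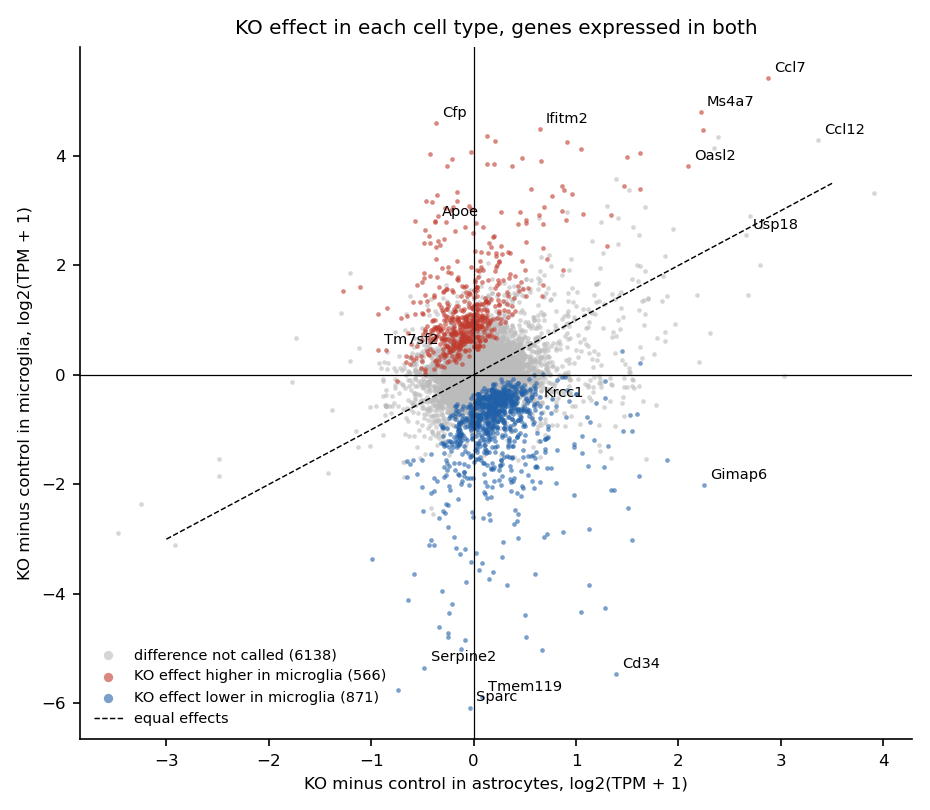
KO effect of each of the 7575 genes in astrocytes (x axis) and microglia (y axis), both as KO minus control in log2(TPM + 1). Red and blue points are the 566 and 871 genes whose effects differed, grey points the rest, and the dashed line marks equal effects. Called genes lie mostly above and below the middle of the plot, spread along the microglial axis, and Usp18 lies on the dashed line at high values on both axes.

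A set of genes that both cell types express in control mice was nearly lost in KO microglia while astrocytes kept it. Sparc, a secreted matrix protein, was at 2796, 2628, 2470 and 2489 TPM in control microglia and at 78.9, 29.8, 29.7 and 27.8 TPM in KO microglia. In astrocytes it was at 411.1 to 824.3 TPM in controls and at 388.1 to 819.5 TPM in KO animals. The microglial groups were far apart and the astrocyte groups overlapped over nearly their whole range. The KO effect was -6.08 in microglia and -0.04 in astrocytes on the log2 scale, a difference of -6.04 ± 0.40 (SE, limma adjusted p = 2.86e-08). Control microglia held more Sparc than astrocytes, and KO microglia less.

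Serpine2, an inhibitor of extracellular serine proteases, was at 1266, 1333, 1390 and 1218 TPM in control microglia and at 39.6, 30.0, 29.5 and 26.2 TPM in KO microglia. Control astrocytes held 1668 to 2107 TPM and KO astrocytes 1065 to 1924 TPM, with overlap. The difference was -4.87 ± 0.23 (adjusted p = 8.32e-10). In control mice the astrocyte level was 146% of the microglial one. Jam2, a junctional adhesion molecule, fell in microglia from 61.7 to 80.0 TPM in controls to 0.5 to 2.8 TPM in KO, while astrocytes held 116.7 to 150.5 TPM and 82.7 to 152.8 TPM (difference -4.87 ± 0.33, adjusted p = 3.02e-08). Adgrg1, an adhesion G protein-coupled receptor, was at 38.9 to 48.5 TPM in control microglia and 0.3 to 0.7 TPM in KO microglia, and at 32.4 to 46.6 and 24.6 to 51.3 TPM in astrocytes (difference -4.76, adjusted p = 2.35e-09). Before the KO, Adgrg1 was at nearly the same level in both cell types, with astrocytes at 90.7% of microglia. Tmem100, a small membrane protein, and Lhfpl2 followed with differences of -4.26 and -4.17. Thrsp, a regulator of lipid synthesis, was at 270.8 to 483.3 TPM in control and 2.2 to 11 TPM in KO microglia. In astrocytes it was also lower in every KO animal, at 489.7 to 888.9 TPM against 1031 to 1371 TPM, an effect of -0.74 that did not pass (adjusted p = 0.286).

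Several of the largest lower effects were those of microglial genes that entered through a low level in astrocytes. Tmem119, a microglial surface marker, went from 3118 to 4130 TPM to 47.7 to 88.1 TPM in microglia and was at no more than 8.3 TPM in any astrocyte library. Olfml3, a secreted microglial protein, and F11r, a junctional adhesion molecule, had control astrocyte levels of 0.425% and 0.636% of microglia. For these genes the KO effect in astrocytes was read on a few TPM. Cd34 had the largest difference of all, -6.87, with 267.3 to 278.1 TPM in control and 2.8 to 15.1 TPM in KO microglia. Its astrocyte level was 1.9 to 13.2 TPM in controls and 41.5, 4.3, 29.9 and 11.5 TPM in KO animals 1 to 4. The highest values were those of the 2 libraries highest in mural and endothelial markers. Cd34 is also an endothelial gene, and the part of these cells in its astrocyte value was not tested. Tmem204 and Tgm2, which endothelial cells also make, were also highest in KO astrocyte libraries 1 and 3, with 92.9 and 116.1 TPM of Tmem204 in animals 1 and 3 and 21.9 and 39.4 TPM in animals 2 and 4.

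Among the genes with a higher effect in microglia, Cfp stood first. It encodes properdin, which stabilises the alternative complement convertase, and in control mice it was as high in astrocytes as in microglia (104%). Control microglia held 26.3, 36.2, 16.2 and 25.2 TPM and KO microglia 546.5, 745.6, 683.4 and 568.4 TPM. Astrocytes held 18.1 to 35.6 TPM in controls and 11 to 26.5 TPM in KO animals. Only the KO microglia stood apart, and the difference was 4.97 ± 0.37 (limma adjusted p = 9.27e-08). Axl, a receptor tyrosine kinase for apoptotic-cell bridging proteins, was at 1.1, 1.8, 1.2 and 2.9 TPM in control and 33.2, 35.6, 49.2 and 34.0 TPM in KO microglia, with 11.8 to 14.8 and 14.0 to 16.9 TPM in astrocytes (difference 3.66, adjusted p = 3.52e-08). In microglia Axl met the level minimum only through the KO group, where it is high. Gas6, a ligand of Axl, had a difference of 2.49, with an effect of 2.12 in microglia and -0.37 in astrocytes.

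For several genes that astrocytes express strongly, the KO moved microglia to near the astrocyte level. Sdc4, a cell surface heparan sulfate proteoglycan, was at 57.0 to 75.8 TPM in control microglia and 878.4 to 1021 TPM in KO microglia, beside 832.4 to 1357 TPM in KO astrocytes. The astrocyte mean was 1889% of the microglial mean in controls and 110% in KO animals (difference 4.08, adjusted p = 5.79e-09). Vcam1, an adhesion molecule for leukocyte integrins, went from 1268% to 84.9%, and Cd38, an NAD-consuming enzyme, from 2028% to 123%. Each of these 3 changes lay in microglia, since the astrocyte effects were -0.26, -0.02 and -0.21 and none passed. Apoe, the main lipid carrier of the brain, crossed over. Control astrocytes held 4849 to 6539 TPM, above the 865.8 to 1829 TPM of control microglia, and KO astrocytes held 3800 to 4956 TPM, below the 7961 to 10084 TPM of KO microglia. The difference was 3.16 ± 0.24 (adjusted p = 1.12e-07), with an astrocyte effect of -0.37 that did not pass (adjusted p = 0.278).

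Plk2, Pla2g7, Ehd1 and Antxr2 also had differences between 3.34 and 3.72, and Apoc1 one of 3.64. Dab2, an endocytic adaptor that is high in border-associated macrophages, went from 20.2 to 38.1 TPM to 323.5 to 487.9 TPM in microglia, and its difference was 3.5. The entry Mir7011, with a difference of 4.46, lies inside Sema4a, and reads of the host gene cannot be told from those of the hairpin. Fos, an immediate-early transcription factor, had a difference of 4.07, with 2.4 to 14.4 TPM in control and 100 to 186.1 TPM in KO microglia. Its astrocyte values ran from 11.2 to 104.9 TPM in controls alone.

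**Figure D3:**
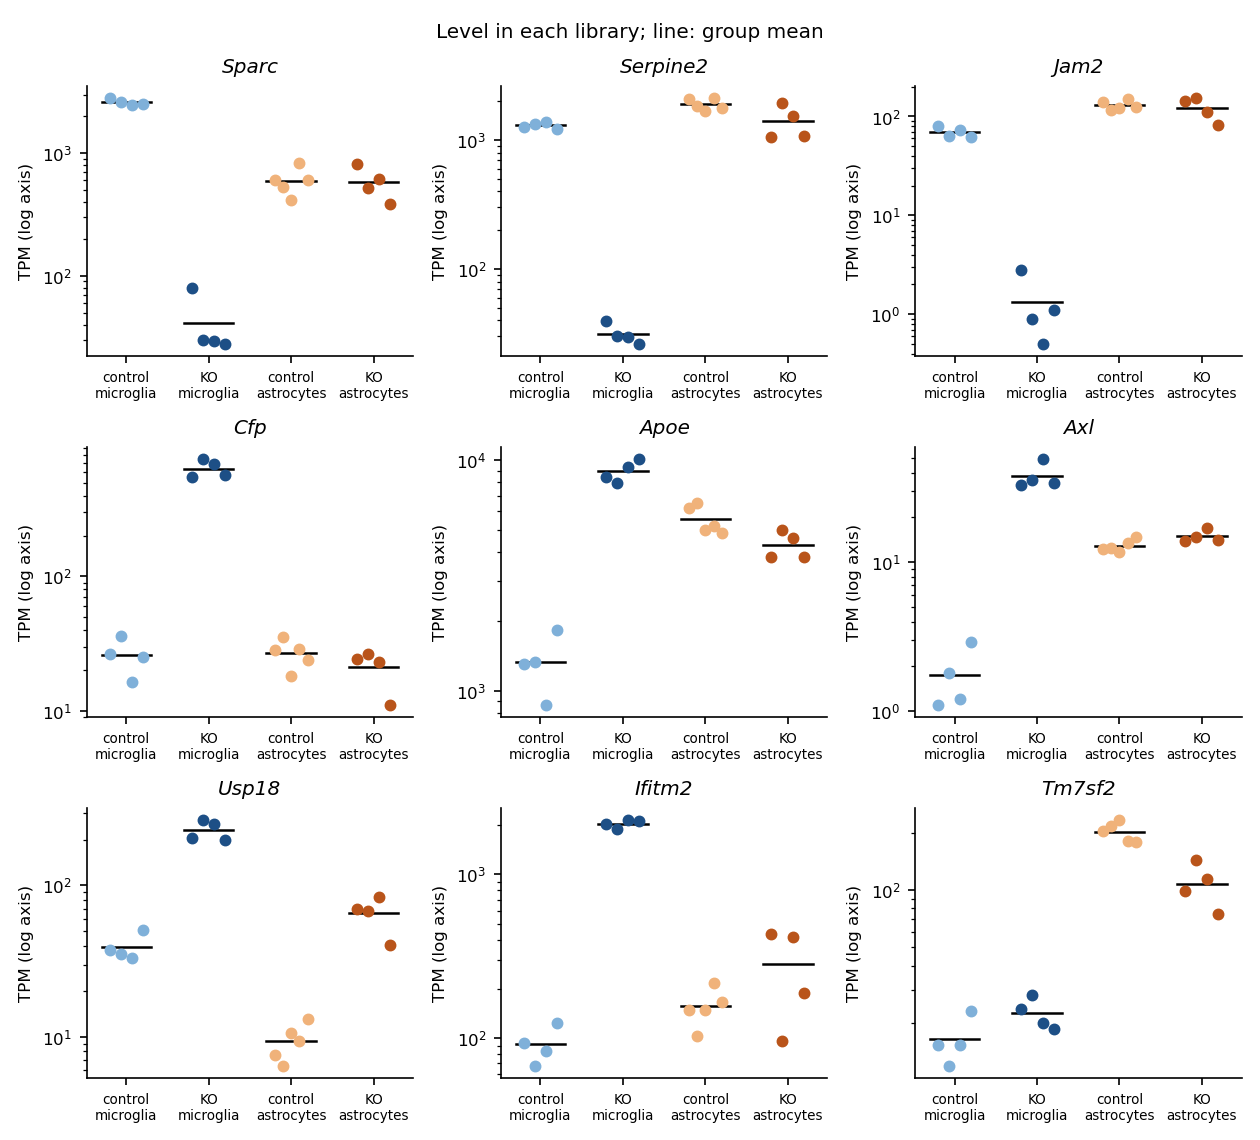
Level of 9 genes in each of the 17 libraries (TPM, log axis), points for libraries and lines for group means. Sparc, Serpine2 and Jam2 are low only in KO microglia, Cfp, Apoe, Axl and Ifitm2 are highest there, Usp18 is higher in KO libraries of both cell types, and Tm7sf2 is lower in KO astrocytes.

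Among interferon-stimulated genes there were calls in astrocytes as well as in microglia. Of 32 such genes, 25 rose in KO microglia and none fell, and 8 rose in KO astrocytes and none fell. The KO effect was higher in microglia for 16 and lower for none, and the medians were 1.53 in microglia and 0.89 in astrocytes, beside 0.01 and 0.07 over all genes tested. These counts were 13 for the difference and 1 for astrocytes without the libraries of KO animals 1 and 3. With the 2 control animals without Y-linked RNA they were 8 and 13, and with the control animals that had it 14 and 3. With the latter controls, of the 24 named genes called in both cell types only Usp18 and Oasl2 were still so called. Of the 32 genes, 8 were under 5 TPM in at least 1 group, and the list was chosen with results of these data known.

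Within the group the difference ran from -1.47 to 3.84 and was positive for 25 of the 32 genes. Usp18, a protease that removes ISG15 from proteins and restrains the interferon receptor, was at 37.7, 35.0, 33.0 and 50.8 TPM in control microglia and 206.1, 269.6, 253.2 and 200.6 TPM in KO microglia. In astrocytes it was at 7.6, 6.4, 10.6, 9.4 and 13.1 TPM in controls and 69.9, 67.7, 83.7 and 40.4 TPM in KO animals. The genotypes did not overlap in either cell type, and each KO library lay above every control library of its cell type. The means rose 5.94-fold and 6.95-fold, the effects were 2.55 and 2.66, and their difference was -0.11 with a 95% interval of -0.77 to 0.54 (limma adjusted p = 0.859). The astrocyte libraries of KO animals 2 and 4 were lower in microglial and mural markers than those of animals 1 and 3. They held 67.7 and 40.4 TPM of Usp18, above all controls. The mural sum of animal 4 was also above all controls. Usp18 was called in astrocytes also without the libraries of KO animals 1 and 3, where no other of the 24 named genes called in both cell types was.

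Bst2 (tetherin) and Irf9, a part of the transcription complex that interferon activates, likewise had differences near 0: 0.08 with an interval of -0.77 to 0.92, and 0.02 with -0.47 to 0.51. Irf9 was at 56.4 to 66.5 TPM in control and 96.1 to 132.2 TPM in KO microglia, and at 12.1 to 19.6 and 17.9 to 29.7 TPM in astrocytes. These intervals are wide, above all for Bst2, so equal effects were not shown. H2-D1, a classical class I molecule, rose by 1.67 in microglia and 1.19 in astrocytes (difference 0.47, adjusted p = 0.193). The other classical class I gene named, H2-K1, went another way: 50.7 to 60.4 TPM in control and 189 to 226.4 TPM in KO microglia, and 15.5 to 21.1 against 15.6 to 22.6 TPM in astrocytes, a difference of 1.89 ± 0.17 (adjusted p = 9.67e-07).

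A second set rose in both cell types, and more in microglia. Ifit3, an antiviral RNA-binding protein, was at 11.2 to 22.8 TPM in control and 95.4 to 160.6 TPM in KO microglia, and at 17.7 to 25.0 and 30.8 to 86.6 TPM in astrocytes. In control mice the astrocytes held 123% of the microglial level and in KO mice 42.8%. The difference was 1.58 ± 0.36 (adjusted p = 0.00616). Rtp4 and Oasl2 had differences of 1.05 and 1.73, and Irf7, the interferon-inducible transcription factor, one of 1.78. For Oasl2 and Irf7, at 0.2 to 2.6 TPM in control astrocytes, the added 1 TPM shrinks the astrocyte effect, and with 0.1 TPM added neither difference passed. Ifitm2 and Ifitm3, which block viral entry at membranes, rose in microglia and were not called in astrocytes. Ifitm2 was at 67.5 to 124.0 TPM in control and 1885 to 2139 TPM in KO microglia, with a difference of 3.84 ± 0.50 (adjusted p = 4.11e-05). In astrocytes it was at 102.8 to 216.4 TPM in controls and 431.0, 96.3, 412.1 and 189.0 TPM in KO animals 1 to 4. Only the 2 libraries highest in mural markers stood above the controls. For Ifitm3 animals 1 and 3 were again highest, with 440.7 and 456.8 TPM, and animal 4, at 244.0 TPM, was also above all controls. The mural sum of animal 4 was above all controls too. Ifitm genes are also made by vascular cells. Their part in these values was not tested.

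**Figure D4:**
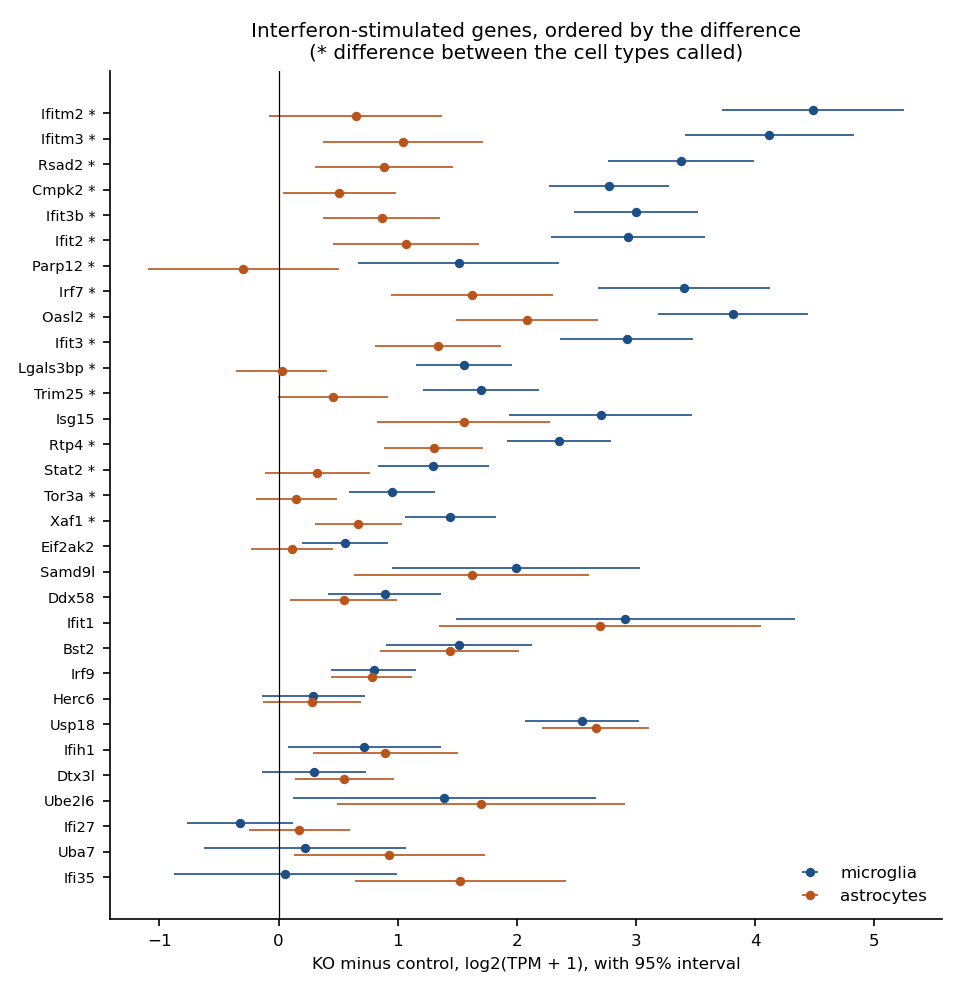
KO effect in microglia (blue) and astrocytes (orange) for the interferon-stimulated genes reported here, in log2(TPM + 1) with 95% intervals from the fit, ordered by the difference, and starred where the difference was called (16 genes). Usp18, Irf9 and Bst2 have nearly equal effects, and Ifitm2 and Ifitm3 have the widest gap.

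Bst2 had a difference near 0 with a wide interval, Ifit3 rose in both cell types and more in microglia, and Ifitm2 was called in microglia alone. Their promoter sequences are shown, since interferon activates its targets through a short element before their start. The 250 bases before the start were searched on both strands for the core of that element, GAAA, 2 bases of any kind, GAAA, which is in capitals below (RefSeq, GRCm38.p6, written 5′ to 3′ on the gene's strand). Ifit3 lies at chr19:34583279-34583528 on the + strand and has 2 cores, Bst2 at chr8:71537473-71537722 on the - strand with 2 overlapping cores, and Ifitm2 at chr7:140955962-140956211 on the - strand with 1.
Ifit3: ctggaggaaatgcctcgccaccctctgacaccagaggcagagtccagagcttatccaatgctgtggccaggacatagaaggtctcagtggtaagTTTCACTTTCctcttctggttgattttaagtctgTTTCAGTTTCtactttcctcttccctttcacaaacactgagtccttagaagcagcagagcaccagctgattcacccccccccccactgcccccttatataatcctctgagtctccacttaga
Bst2: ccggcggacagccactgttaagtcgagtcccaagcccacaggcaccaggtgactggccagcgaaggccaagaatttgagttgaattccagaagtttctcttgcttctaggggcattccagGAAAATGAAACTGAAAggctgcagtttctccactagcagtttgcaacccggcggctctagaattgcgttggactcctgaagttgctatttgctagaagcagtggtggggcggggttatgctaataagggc
Ifitm2: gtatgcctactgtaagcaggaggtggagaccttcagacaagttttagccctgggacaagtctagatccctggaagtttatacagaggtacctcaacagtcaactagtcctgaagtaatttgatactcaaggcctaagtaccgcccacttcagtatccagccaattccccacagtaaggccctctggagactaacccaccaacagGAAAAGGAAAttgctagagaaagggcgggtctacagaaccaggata
The core was present in 8 of the 27 interferon-stimulated genes with a promoter in the table, in 3 of the 15 named genes that rose in both cell types and had a promoter (Ifit3, Bst2 and Eif3a), and in 936 of all 27025 genes of the table (3.46%). Genes with the core included both Bst2, with a difference of 0.08, and Ifitm2, with 3.84. No match says only that these letters are not in this window, and a match is a description, not a binding site.

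Interferon-gamma GTPases, which act on membranes of vacuoles, included genes with the larger effect in astrocytes. Of 8 such GTPases 4 rose in microglia and 2 in astrocytes, Igtp and Gbp3, and the difference was higher for 1 and lower for 2. Without the astrocyte libraries of KO animals 1 and 3 none was called in astrocytes, and the difference was higher for 2 and lower for 0. With the microglial share of each library subtracted none was called in astrocytes either. Igtp was at 279.9 to 295.2 and 251.5 to 336.5 TPM in control and KO microglia, fully overlapping, and at 47.8 to 68.8 and 64.4 to 106.7 TPM in astrocytes (difference -0.66, adjusted p = 0.0387). Irgm2 had effects of -0.35 and 1.00, neither of which passed, and a difference of -1.35 (adjusted p = 0.0119). Tgtp2 went the other way, with a difference of 1.98 (adjusted p = 0.0457). Psmb8, a catalytic subunit of the immunoproteasome, rose in astrocytes from 10.6 to 17.1 TPM to 54.6, 30.5, 51.8 and 25.4 TPM, while microglia held 652.1 to 766.7 and 926.9 to 1010 TPM. Its difference was -1.01 (adjusted p = 0.018), and it did not pass without the astrocyte libraries of KO animals 1 and 3. Irgm2 was called neither in that setting nor with the control animals without Y-linked RNA, and Igtp was called in 12 of 34 alternatives.

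The remaining genes called in both cell types were few and mixed. Genes called higher in both numbered 21, lower in both 4, and opposite 1, and 9 of these 26 had a called difference. The chemokine genes Ccl12 and Ccl7, which attract monocytes, and the macrophage genes Ms4a7 and Lyz1 were very low in control astrocytes. Ccl12 was at 7145 to 8301 TPM in KO microglia and at 125.5, 13.6, 24.3 and 11.2 TPM in KO astrocytes, against 0 to 8.0 TPM in control astrocytes. When the microglial share of each library was subtracted, the astrocyte effect of Ccl12 became -0.94 and that of Ms4a7 -0.04, and 11 of the 24 named genes, Usp18, Ifit3, Oasl2, Rtp4 and H2-D1 among them, were still called in both. Gbp10, an interferon-induced guanylate-binding protein, had a difference of 1.39 that did not pass (adjusted p = 0.076). Hprt, a purine salvage enzyme, the actin-nucleating subunits Arpc2 and Arpc5, the histone gene H3f3b, the translation factor gene Eif3a and the acetyltransferase gene Naa50 rose by less than 1 in both.

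Genes lower in both cell types were Cst3, Slc46a1, Bmyc and Tecr. Cst3, the secreted inhibitor of cysteine proteases, is among the most abundant RNAs of both: 32741 to 35048 TPM in control and 10281 to 12697 TPM in KO microglia, and 15829 to 23821 and 9898 to 15556 TPM in astrocytes. The microglial fall was the larger one (difference -0.92, adjusted p = 0.00232). Slc46a1, a folate transporter, had effects of -1.87 and -0.65 (difference -1.22, adjusted p = 0.000278). Bmyc and Tecr, the latter an enzyme of very long fatty acid synthesis, had differences of 0.05 and 0.14 with intervals of -0.33 to 0.42 and -0.08 to 0.36. The astrocyte effects of Cst3, Slc46a1, Bmyc and Tecr were called in 20, 13, 10 and 23 of the 33 alternatives that estimate one. Without the astrocyte libraries of KO animals 1 and 3 none of the 4 was called in both cell types. Krcc1 was the single gene called in opposite directions. It was at 137.4 to 172.6 and 99.3 to 117.9 TPM in control and KO microglia, and at 28.0 to 38.7 and 45.5 to 60.7 TPM in astrocytes, without overlap in either cell type. Its difference was -1.14 ± 0.17 (adjusted p = 0.000148) and was called in all 34 alternatives. Its astrocyte effect was called in 26 of the 33 alternatives that estimate one.

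TGF-beta signalling genes differed on the microglial side. Of 7 ligand, receptor and activator genes the effect was lower in microglia for 5 and higher for 1, and none passed in astrocytes. Tgfbr1, the signalling receptor, was at 348.2 to 577.5 TPM in control and 49.3 to 92.6 TPM in KO microglia, and at 4.0 to 6.7 and 7.0 to 8.4 TPM in astrocytes (difference -2.96 ± 0.28, adjusted p = 1.27e-06). Tgfbr2, the ligand-binding receptor, was at 72.5 to 82.9 and 81.5 to 125.1 TPM in microglia, and its difference of -0.33 did not pass (adjusted p = 0.625). Itgav, the integrin chain that releases the latent ligand, had a difference of -1.91, with astrocyte levels of 25.9 to 55.7 and 31.8 to 56.6 TPM. Itgb5 and Itgb1, integrin beta chains, had differences of -1.003 and -0.91, and Nrros, which holds latent TGF-beta on microglia, had the higher effect, 1.86. Eng, a co-receptor of endothelial cells, had one of -3.48, and its KO astrocyte values of 22 and 26.1 TPM were again in animals 1 and 3, without which it was not called. The count of 5 was 2 without these libraries, and no gene was then higher.

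Of 11 SMAD and response genes the effect was lower in microglia for 3, the feedback inhibitors Smad7, Skil and Ski, and higher for none. Smad7 was at 8.9 to 14.6 TPM in control and 0.9 to 3.9 TPM in KO microglia, and at 2.6 to 7.4 and 7.0 to 11.1 TPM in astrocytes. The microglial groups did not overlap, and the astrocyte effect of 0.48 did not pass (difference -2.55, adjusted p = 0.000319). Skil and Ski had differences of -2.43 and -1.44.

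All 43 cytosolic ribosomal protein genes rose in KO microglia, the difference was called higher for 24 of the 43, and none passed in astrocytes. The medians were 0.76 and 0.07. The summed level was 15463 to 22943 TPM in control and 29586 to 36908 TPM in KO microglia, and 8967 to 10469 and 7890 to 12877 TPM in astrocytes. The 2 control microglia libraries with Xist were the higher ones, at 22080 and 22943 TPM, and with them as the only controls the difference was called for 1 of 43 genes and the microglial effect for 13. Rps18, a small-subunit protein, had a difference of 1.10 (adjusted p = 0.00601), which did not pass with those controls. Of 41 oxidative phosphorylation subunits 13 rose and 3 fell in KO microglia and none passed in astrocytes, and the difference was called higher for 10 and lower for none. Cox5a, Cox5b and Ndufa4 had differences of 0.90, 0.93 and 0.79, and the count was 2 with the controls without Y-linked RNA.

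Of 17 glycolysis and lactate export genes 9 fell and 2 rose in KO microglia, with a median of -0.43, and 1 fell in astrocytes, with a median of -0.25. The difference was higher for 3 and lower for 3. Ldhb, the lactate dehydrogenase chain that favours pyruvate, was at 838.3 to 1121 TPM in control and 136.2 to 175.0 TPM in KO microglia, and at 1379 to 1723 and 900.1 to 1498 TPM in astrocytes (difference -2.27, adjusted p = 2.92e-07). Gpi1, which converts glucose phosphate to fructose phosphate, had the opposite difference of 1.14, with an astrocyte effect of -0.35. Slc2a1, the glucose transporter, had one of -0.95, from effects of -1.20 and -0.25.

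Of 21 lipid-handling genes the difference was higher for 7 and lower for 2, with no astrocyte call. Plin2, the lipid droplet coat protein, was at 19.7 to 37.2 TPM in control and 135.2 to 156.3 TPM in KO microglia, and stayed between 28.0 and 41.3 TPM in all astrocyte libraries (difference 2.25, adjusted p = 4.92e-06). Acsl3, which activates fatty acids, had a difference of 3.06, although KO microglia held only 6.0 to 11.2 TPM of it beside 74.8 to 177.7 TPM in astrocytes.

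Of 17 cholesterol synthesis genes 4 fell in microglia and 2, Fdft1 and Tm7sf2, in astrocytes, with medians of -0.23 and -0.51. The difference was called higher for 2, Tm7sf2 and Pmvk, and lower for none. As a share of the 17 this is under the 15.5% called over all genes tested. Tm7sf2, a sterol reductase, was at 203.5, 217.1, 231.9, 180.3 and 178.7 TPM in control astrocytes and 98.4, 144.1, 114.1 and 74.7 TPM in KO astrocytes. In microglia it was at 11.9 to 23.2 and 18.6 to 28.2 TPM. The astrocyte groups did not overlap, the microglial ones did, and the difference was 1.39 ± 0.28 (adjusted p = 0.00236), called in all 34 alternatives. With median-of-ratios scaling over all libraries 4 of the 17 were called. No astrocyte call of this group was left without the libraries of KO animals 1 and 3.

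Other differences led by astrocytes were those of Tubb2b, a neural beta tubulin, and Gstm5, a glutathione transferase. Tubb2b was at 406.7 to 625.3 TPM in control and 220.5 to 329.3 TPM in KO astrocytes, and at 49.8 to 80.4 and 75.3 to 101.9 TPM in microglia (difference 1.30, adjusted p = 0.00119). Gstm5 was at 3820 to 5238 TPM and 2211 to 3721 TPM in astrocytes (difference 1.02, adjusted p = 0.00248). Both differences were called in all 34 alternatives, and the astrocyte effects in 22 and 9 of the 33 that estimate one. Gaa, the lysosomal glucosidase, had a difference of 1.07. The differences of Bbs10 and Prodh, 1.17 and 0.93, were called in 16 and 17 of the 34 alternatives. The astrocyte effects of Gaa, Bbs10 and Prodh were called in 0, 0 and 1 of the 33. The summed level of 23 astrocyte markers was 39003.9, 57637.5, 44443 and 33725.8 TPM in KO astrocyte libraries 1 to 4. In control astrocytes it was 47486.9 to 54286.7 TPM. A lower share of astrocyte RNA in KO libraries 1, 3 and 4 cannot be told apart from a fall within astrocytes. Its part in the falls of these genes and of Tm7sf2 was not tested.

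Several lower differences led by astrocytes were of genes highest in the 2 KO libraries with the most mural marker RNA, whose part was not tested. Gimap6, a leukocyte and endothelial GTPase, was at 60.4, 8.1, 72.5 and 21.6 TPM in KO astrocytes 1 to 4 and at 0 to 38.9 TPM in controls (difference -4.26, adjusted p = 0.0445). Cnn2 and Tlr12 had differences of -3.45 and -2.61, and Mboat1, Rgs10 and Lgals9 had -2.56, -2.48 and -2.31. In astrocytes Tlr12, Mboat1, Rgs10 and Lgals9 reached the 5 TPM minimum through the KO group alone. Their highest control astrocyte values were 4.1, 7, 2.2 and 5.6 TPM. Rgs10 was at 12.5, 1.1, 4.1 and 2.5 TPM in KO astrocytes 1 to 4, highest in the library with the highest microglial share. Without the libraries of KO animals 1 and 3, Gimap6, Cnn2 and Tlr12 were not called. Mboat1 had 10.7, 10.1, 7.1 and 17.2 TPM in KO astrocytes, not highest in animals 1 and 3.

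Lysosomal genes were abundant in both cell types and changed in both directions in microglia. Of 34 the difference was higher for 6 and lower for 6, and Cst3 alone passed in astrocytes. Ctsd, cathepsin D, was at 14914 to 16898 TPM in control and 2894 to 3344 TPM in KO microglia, and at 1360 to 1506 and 1084 to 1351 TPM in astrocytes (difference -2.09 ± 0.10, adjusted p = 9.55e-10). The astrocyte groups did not overlap either, with an effect of -0.27 that did not pass (adjusted p = 0.0915). Ctsb, cathepsin B, went the opposite way in microglia, from 2667 to 2992 TPM to 5307 to 6008 TPM, with overlap in astrocytes (difference 1.10). Cd63, a tetraspanin of late endosomes, had a difference of 1.51.

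Of 26 genes of iron, heme and oxidative stress, the difference was higher for 10 and lower for 1, and none passed in astrocytes. Blvrb, a biliverdin reductase, was at 58.8 to 97.0 TPM in control and 397.2 to 449.6 TPM in KO microglia, and at 30.8 to 42.8 and 19.4 to 44.3 TPM in astrocytes (difference 2.77, adjusted p = 8.51e-06). Ftl1, the ferritin light chain, and Prdx1, a peroxiredoxin, had differences of 0.93 and 1.00. The gene with the lower effect was Tfrc, the transferrin receptor, at -1.39, named after its value was seen.

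Of 15 immediate-early genes 8 rose in microglia and none passed in astrocytes, and the difference was higher for Fos, Dusp1 and Gadd45b. Dusp1, a MAP kinase phosphatase, was at 17.5 to 52.4 TPM in control and 254.4 to 342.8 TPM in KO microglia, and at 218.6 to 282.7 and 202.0 to 340.7 TPM in astrocytes. As with Sdc4, KO microglia reached the astrocyte level (difference 3.13, adjusted p = 4.79e-06). Of 20 heat shock and chaperone genes, Dnajb4 alone had a called difference, of -0.98, a share under the 15.5% called over all genes tested.

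Adhesion and matrix genes had mostly lower effects in microglia: 12 of 21 lower and 2 higher, with medians of -0.72 in microglia and -0.04 in astrocytes. Without the astrocyte libraries of KO animals 1 and 3, 9 were lower and 2 higher. Cd9, a tetraspanin, was at 3259 to 3846 TPM in control and 750.8 to 920.5 TPM in KO microglia. In astrocytes it was at 1106 to 1546 and 1284 to 1983 TPM (difference -2.48, adjusted p = 2.12e-07). Il6st, the shared signalling receptor of the interleukin 6 family, had a difference of -2.02, with effects of -1.41 and 0.61.

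Astrocyte marker genes in the microglial libraries moved in both directions. Of 11, the difference was higher for 3 and lower for 1. Slc1a3, a glutamate transporter that microglia also make, was at 274.9 to 608.3 TPM in control and 33.8 to 39.3 TPM in KO microglia, and at 7121 to 8021 and 5404 to 9526 TPM in astrocytes (difference -3.39, adjusted p = 2.88e-07). Acsbg1, Gfap and Aldoc rose in microglia, but only to 4.2 to 7.6, 3.6 to 9.7 and 24.1 to 36.4 TPM, while control astrocytes held 1290 to 1493, 187.7 to 210.8 and 3752 to 5050 TPM. The defining astrocyte gene Slc1a2 was at 0.2 to 0.5 TPM in control and 0.7 to 1.4 TPM in KO microglia. The summed level of the whole list of 23 markers was 813.5 to 1512 TPM in control microglia and 533.1 to 631.6 TPM in KO microglia. That sum includes the fall of Slc1a3, from 274.9 to 608.3 TPM to 33.8 to 39.3 TPM, so it does not measure astrocyte RNA. The part of astrocyte RNA in these small rises was not tested.

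Of 15 homeostatic microglial genes at 5 TPM or more in both cell types, the effect was lower in microglia for 12 and higher for none, with medians of -3.27 in microglia and -0.04 in astrocytes. P2ry12, the purinergic receptor that marks microglia, was at 3441 to 4101 TPM in control and 206.2 to 265.4 TPM in KO microglia, and at 8.4 to 14.7 and 6.7 to 12.4 TPM in astrocytes (difference -3.65, adjusted p = 2.63e-08). Of 16 listed border-associated macrophage markers, 6 met the level minimum in both cell types, and 3 of these were under 5 TPM in at least 1 group. The effect was higher in microglia for 5 of the 6 and lower for none, beside 6.63% and 8.87% of all genes tested. Of 8 oligodendrocyte genes 1 had a called difference, Mag, a myelin glycoprotein, at -1.34 (adjusted p = 0.0198). As a share of the 8 this is under the 15.5% called over all genes tested. Mag was at 78.1 to 116.5 TPM in control astrocytes and at 157.1, 97.7, 120.3 and 321.8 TPM in KO astrocytes 1 to 4, the highest being the library with the highest oligodendrocyte sum, whose part was not tested. The call of Mag was lost with the animal as a block and with either set of control animals alone. The median difference of the 8 genes, -0.68, was -1.89 with 4 lower when the controls lacked Y-linked RNA, and 0.51 with 0 lower when they had it.

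**Figure D5:**
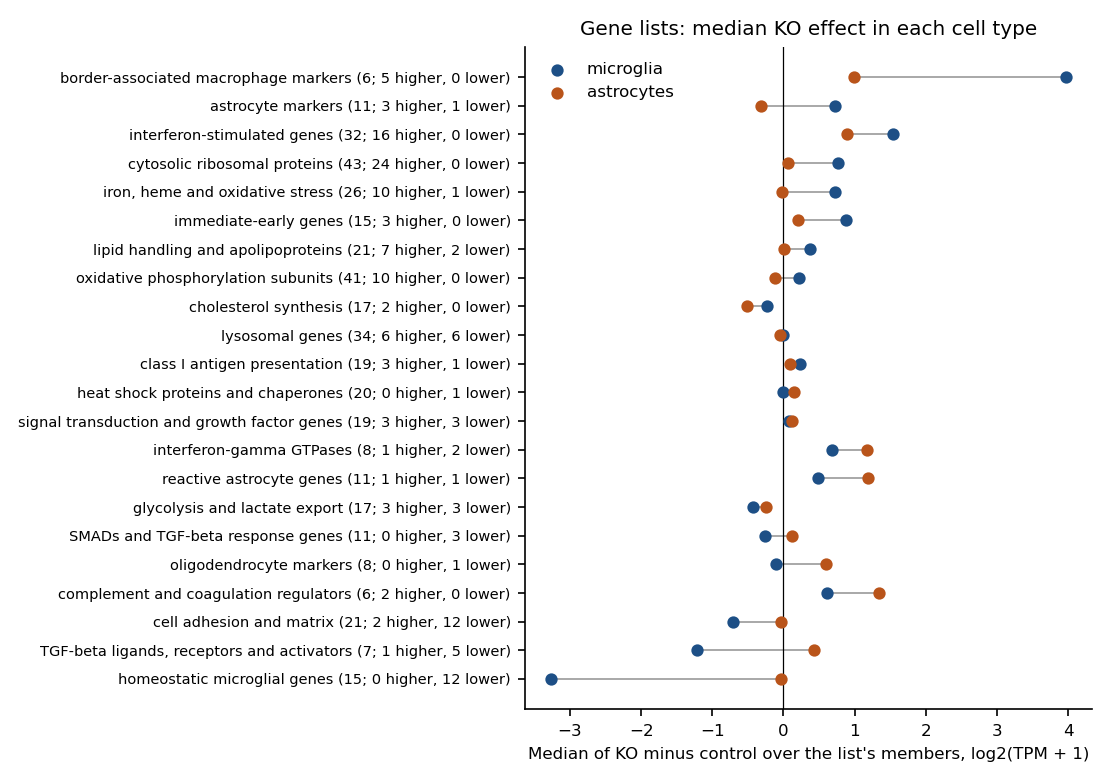
Median KO effect in microglia (blue) and astrocytes (orange) for each gene list with at least 6 members, in log2(TPM + 1), with the number of members and of called differences in each direction beside the name. Homeostatic microglial genes have a median of -3.27 in microglia and -0.04 in astrocytes, while in astrocytes interferon-stimulated genes have a median of 0.89 and interferon-gamma GTPases one of 1.18.

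The differences were also read within animals, with no model. For each of the 8 animals with both libraries, log2(TPM + 1) in microglia minus astrocytes was compared between genotypes. Of the 96 named genes with a called difference, 89 had values that did not overlap between the 4 KO and 4 control animals, each with the smallest p that the exact two-sided permutation test allows over 70 assignments (0.0286). These genes were named by the size or p of the same difference, so this describes them and supports nothing further. The share without overlap over all genes tested was not computed, so the count of 89 cannot be set against it. Usp18 overlapped (exact permutation p = 0.457), as did Bst2 (0.971) and Irf9 (0.543).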

How the data were processed

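Total RNA of sorted microglia and astrocytes was sequenced as paired 61-base reads, per the labels' protocols. The authors deposited TPM per gene, already scaled to nearly the same total in each library and written with 1 decimal, so that values under 0.05 TPM are listed as 0. Trim Galore 0.4.2, cutadapt 1.9.1, STAR 2.6.1e, featureCounts 1.6.2 and the mm10 build are named in the submitters' processing notes. TPM keeps no depth, so the precision of single values is unknown and rests on replicates, which are separate mice per the labels. Of 18 libraries, 1 whose title and sample code disagree was left out.

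Genes at 1 TPM or more in at least 4 libraries were fitted with limma 3.58.1 (R 4.3.3) on log2(TPM + 1) with a variance trend, 1 mean per group and no block. Adjusted p-values are Benjamini-Hochberg over all 17087 genes tested, with a threshold of 0.05, and log2 changes understate those of genes near 1 TPM. The fit was tested on simulated data. Alternatives numbered 34 and covered the pseudocount, filter, scaling, weights, animal block, control animals by Y-linked RNA and left-out libraries. Subtraction of the microglial share was chosen after seeing the data.

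Named genes were the largest and smallest called differences, overall and among genes within 10 times of each other in controls, those called in both cell types, those led by astrocytes, the smallest p of each list, and a few fixed genes such as Tgfb1 and Usp18. Itgb5, Itgb1, Nrros, Gbp3, Fdft1 and Tfrc, given to fill short counts, fall outside that rule and were chosen after their values were seen. A gene of the interferon-stimulated list is counted but not reported here by name. The genes and lists were chosen with earlier results of these data known. Microglia and astrocytes of an animal came from the same mouse; the correlation of their deviations from the group means was 0.030 to 0.189, and in 8 of 8 animals the own astrocyte library correlated best.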

Additional observations from a re-analysis of the deposited data

Results flagged for a closer look

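A value that stood far from the rest of its group (by the gap to its nearest neighbour against the group's range) was found 21 times among 464 groups of values over 116 genes, and chance gives about 1 in 20 groups. KO astrocyte library 1 held 4 of them: Slco4a1 at 49.7 TPM (the others 1.2 to 2.0), Ccl12 at 125.5 TPM, Ms4a7 at 16.3 TPM and Ndufa4 at 1150 TPM. This library had the highest microglial share, 1.69%. Microglia of the same animal held only 0.4 TPM of Slco4a1, and 689.2 TPM of Ndufa4. With that share subtracted from each library the astrocyte effect was -0.94 for Ccl12 and -0.0395 for Ms4a7. KO microglia library 1 held Cd34 at 15.1 TPM, Sparc at 78.9 TPM and Ccl12 at 8301 TPM, each above the other KO microglia. KO microglia library 3 had Axl at 49.2 TPM.

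KO astrocyte library 4 had Smad7 at 11.1 TPM and Cd63 at 661.0 TPM, and library 3 had Dusp1 at 340.7 TPM. Control astrocyte library 1 was low for Tmem119 (0.5 TPM), Cmpk2 (11 TPM) and Dnajb4 (18.7 TPM). Of the other control astrocytes, library 5 had Ccl7 at 2.2 TPM, library 2 Pmvk at 205.9 TPM and library 3 Ifit3 at 25.0 TPM. Control microglia library 1 had Tgfb1 at 3.4 TPM and Irf9 at 56.4 TPM, and library 4 had C2 at 2.2 TPM and Naa50 at 44.6 TPM.

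The KO effect differed between the cell types, by limma's test of the difference itself, for 566 genes with a higher and 871 with a lower effect in microglia. Krcc1, called in opposite directions, had a difference of -1.14.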

How the results depend on the processing

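No called difference changed sign under any of the 34 alternatives, and 68 of the 96 named genes with a called difference were called in all of them. With control animals without Y-linked RNA, which leaves fewer samples, 344 genes were higher and 567 lower. The 46 astrocyte calls were the least stable. They numbered 28 with no variance trend, 75 with array weights for each library, 239 with controls without and 9 with controls with Y-linked RNA, 500 with a term for it, 2 without KO astrocyte libraries 1 and 3, and 23 with the microglial share subtracted. Leaving out 1 library gave 456 to 620 higher and 682 to 865 lower differences, 1734 to 2237 microglial calls and 6 to 366 astrocyte calls, lowest without KO astrocyte library 3 and highest without library 2. The cause was not tested.

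With the animal as a replicate block 575 differences were higher and 772 lower, and 1188 of the 1437 were also called. Differences near 0 that were not called changed sign under some alternatives, among them those of Bst2 (-0.54 to 0.67) and Irf9 (-0.14 to 0.21). So did those of Ccl12 (-0.56 with 0.1 TPM added, with controls without Y-linked RNA and with the term), Lyz1 (-0.44, -0.32 and -0.32 there), Bmyc (-0.022 with quantile normalization, -0.0443 with library weights, -0.0247 to 0.133 leaving out 1 library) and Usp18 (0.17 with 5 TPM added, 0.0346 with controls with Y-linked RNA, 0.16 without KO astrocyte libraries 1 and 3, -0.325 to 0.0192 leaving out 1 library). With the share subtracted the astrocyte effect was -0.94 for Ccl12 and -0.0395 for Ms4a7.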
